A study of Mus musculus with 4 samples.

Results

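The killer cell lectin-like receptor genes are the 26 genes of the deposited table of 27998 whose symbols begin with Klr, taken by symbol alone and without regard to any measured value. They comprise 11 Klra genes and 15 others of the Klrb, Klrc, Klrd, Klre, Klri, Klrk and Klrg families. All 26 lie on chromosome 6 of mm10, and 24 of them fall between the start of Klrb1a and the end of Klra2 (chr6:128609227-131247362), a stretch known as the natural killer gene complex. Klrg1 (chr6:122270596-122282882) and Klrg2 (chr6:38625693-38637242) lie elsewhere on that chromosome. Unique molecular identifiers (UMIs, each counting 1 captured transcript) were read in single lung cells of wild-type C57BL/6 mice, all labelled male, at 10 days (NB), 2 months (2 M), 10 months (10 M) and 18 months (18 M). Each age had 1 library made from enzymatically digested whole lung after dead cells were removed, and the number of mice behind a library is not given in the sources used here. The series asks how the lung changes with age, and the comparisons below set NB, 10 M and 18 M against 2 M. With 1 library per age no test between ages was possible, so intervals in parentheses are 95% intervals for counting error alone and carry no error between animals. Levels are given as CPM, UMIs per 1000000 UMIs of the cells summed.

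These receptors are type II membrane proteins with a C-type lectin-like domain that natural killer (NK) cells and some T cells use to read the surface of other cells. The Klra genes encode the Ly49 receptors, which bind MHC class I in mice. Most of them carry an inhibitory motif that recruits phosphatases, whereas the products of Klra4 and Klra8 lack it and activate the cell through the adaptor DAP12, the product of Tyrobp. A single NK cell expresses only some Ly49 genes, so NK cells differ from each other in the set they carry, and the receptors are acquired over the weeks after birth. The Klrd1 product CD94 pairs with NKG2A (Klrc1, inhibitory) or NKG2C (Klrc2, activating) to recognise Qa-1, encoded by H2-T23. Klrk1 encodes the activating receptor NKG2D for stress-induced ligands, the Klrb1 products recognise lectins of the Clec2 family, and KLRG1 is an inhibitory receptor for cadherins that marks mature and repeatedly stimulated lymphocytes.

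A block of sequence near the gene start is shared by 9 of the 11 Klra genes. Of these, 5 (Klra3, Klra4, Klra7, Klra8 and Klra9) were lower together in NK cells of 1 library, and 2 were found in myeloid cells. The other 2 (Klra5 and Klra6) were sparse in NK cells and not separated from 2 M in that library. Any part of the block in these levels was not tested. Windows from 250 bases before to 50 bases after the RefSeq start (GRCm38.p6) were available for 23 of the 26 members. The word AGGAGGGGCAGAAA was in the windows of 7 Klra genes and, on either strand, in 9 of 32851 windows of all genes (0.0274%). It was found by searching these same windows, so its share is a description. A block of 46 bases that begins with a shared pyrimidine-rich run holds the word or its closest match, in capitals below, at up to 2 mismatches. All blocks are on the minus strand and are printed 5′ to 3′. The first 5 belong to the Klra genes described most fully below in NK cells, and the last 2 to the members found in macrophages and neutrophils.
Klra8: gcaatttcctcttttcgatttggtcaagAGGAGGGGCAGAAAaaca
Klra4: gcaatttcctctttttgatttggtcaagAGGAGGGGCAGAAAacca
Klra9: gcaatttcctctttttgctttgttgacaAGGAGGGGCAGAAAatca
Klra7: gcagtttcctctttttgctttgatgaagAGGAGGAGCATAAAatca
Klra3: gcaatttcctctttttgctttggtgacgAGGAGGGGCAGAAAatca
Klra2: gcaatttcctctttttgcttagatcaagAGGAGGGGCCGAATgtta
Klra17: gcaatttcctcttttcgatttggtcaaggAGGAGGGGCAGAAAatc
The blocks of the activating genes lie at chr6:130129937-130129982 (Klra8) and chr6:130067309-130067354 (Klra4), and those of the inhibitory genes at chr6:130193109-130193154 (Klra9), chr6:130233370-130233415 (Klra7) and chr6:130337604-130337649 (Klra3). Those of the myeloid members lie at chr6:131247392-131247437 (Klra2) and chr6:129876705-129876750 (Klra17). The word is intact in Klra8, Klra4, Klra9, Klra3 and Klra17, and Klra7 and Klra2 each differ from it at 2 bases. It is also intact in Klra5 and Klra6, whose blocks are not printed. Genes that were high in NK cells and genes that were high in myeloid cells shared the block, so its presence did not separate them. No match was found in the windows of Klra1 and Klra10.

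The libraries held 33087004 to 64863474 UMIs and together 34037 barcodes, of which 28153 passed the limits on genes, UMIs and mitochondrial reads, at median depths of 3998.5 to 4308 UMIs. Pairs of libraries shared 17 to 28 barcodes (0.231 to 0.380% of the smaller). The library labelled 18 M stood apart from the other 3. Xist, transcribed from the inactive X of female cells, was at 0.176 CPM (NB), 0.243 (2 M), 0.526 (10 M) and 578 (18 M), while the Y-linked Ddx3y was at 207 CPM (NB), 236 (2 M), 199 (10 M) and 135 (18 M). Transcripts of genes of fetal and perinatal growth were concentrated there and not in NB, with 0, 2, 2 and 974 UMIs of H19 and 1, 8, 7 and 253 of Dlk1 in order of age, as was the lymphocyte progenitor gene Rag1, with 0, 5, 17 and 609. Conversely Ccl5, a chemokine of experienced T and NK cells, was at 2611 CPM (NB), 1578 (2 M), 2586 (10 M) and 416 (18 M). NB, labelled 10 days, held 0 UMIs of H19 and Rag1, and the cell cycle gene Mki67 was at 10.6 CPM in NB and 45.9 in 18 M. Age, animal and library cannot be told apart. Comparisons with 18 M are therefore given as comparisons with the library labelled 18 M. They stand beside 10 M and NB against 2 M, which do not use it. Whether either label describes its cells was not tested, and values of NB are likewise those of the library labelled NB.

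Cells were assigned to types by markers that include no Klr gene. NK cells had no CD3 UMI and at least 3 of 7 NK genes, among them Ncr1, Eomes or Txk, and numbered 142 (NB), 448 (2 M), 542 (10 M) and 138 (18 M), with median depths of 4185 (NB), 4125 (2 M), 3785 (10 M) and 4501 (18 M) UMIs. The marker Eomes was seen in 68.3% (NB), 87.9% (2 M), 84.1% (10 M) and 73.2% (18 M) of them, Gzma in 89.4% (NB), 97.1% (2 M), 97.4% (10 M) and 90.6% (18 M), and Prf1 in 59.2% (NB), 55.8% (2 M), 57.4% (10 M) and 17.4% (18 M), 3 of the genes that set the gate, so these shares describe it and do not test it. Ncr1, also a gate gene, was seen in 27.5% (NB), 22.5% (2 M), 21.6% (10 M) and 9.42% (18 M), and like Prf1 it was seen least often in 18 M. The B cell gene Cd79a was at 0 to 5.59 CPM in NK cells. CD8 T cells numbered 702 (NB), 443 (2 M), 588 (10 M) and 503 (18 M). Because the gene table used here holds no T cell receptor genes, gamma-delta T cells could not be gated by their receptor. CD4-CD8- T cells with at least 2 of 8 type 17 genes (Il23r, Cd163l1 and others) stood in for them, are called gamma-delta-type, and numbered 93 (NB), 27 (2 M), 92 (10 M) and 88 (18 M). Innate lymphoid cells (ILCs) by at least 3 of 12 ILC genes numbered 11 (NB), 10 (2 M), 11 (10 M) and 72 (18 M).

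NK cells held the largest share of Klr transcripts among the cell types. Of the 38361 Klr UMIs in kept cells, 18802 (49.0%) lay in the 1270 NK cells, 5566 (14.5%) in CD8 T cells, 3536 (9.22%) in CD4-CD8- T cells without type 17 genes, 303 (0.790%) in gamma-delta-type T cells and 60 (0.156%) in ILCs. NK cells carried 3398 Klr UMIs per 1000000 UMIs (CPM), against 21.4 CPM in B cells, which should lack these genes and give the level of free RNA. Of the 26 members, 17 were highest in NK cells in all 4 libraries among the types with at least 20 cells. The 19 members with at least 30 UMIs in NK, CD8 T, gamma-delta-type or innate lymphoid cells are described with their values. Each of the 19 was above B cells in NK cells in all 4 libraries, by intervals of the ratio above 1. The other 7 were Klra2 (1910 UMIs in all kept cells), Klra17 (121), Klrg2 (134), Klrc3 (27), Klrb1 (24), Klri1 (18) and Klra10 (10).

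**Figure D1:**
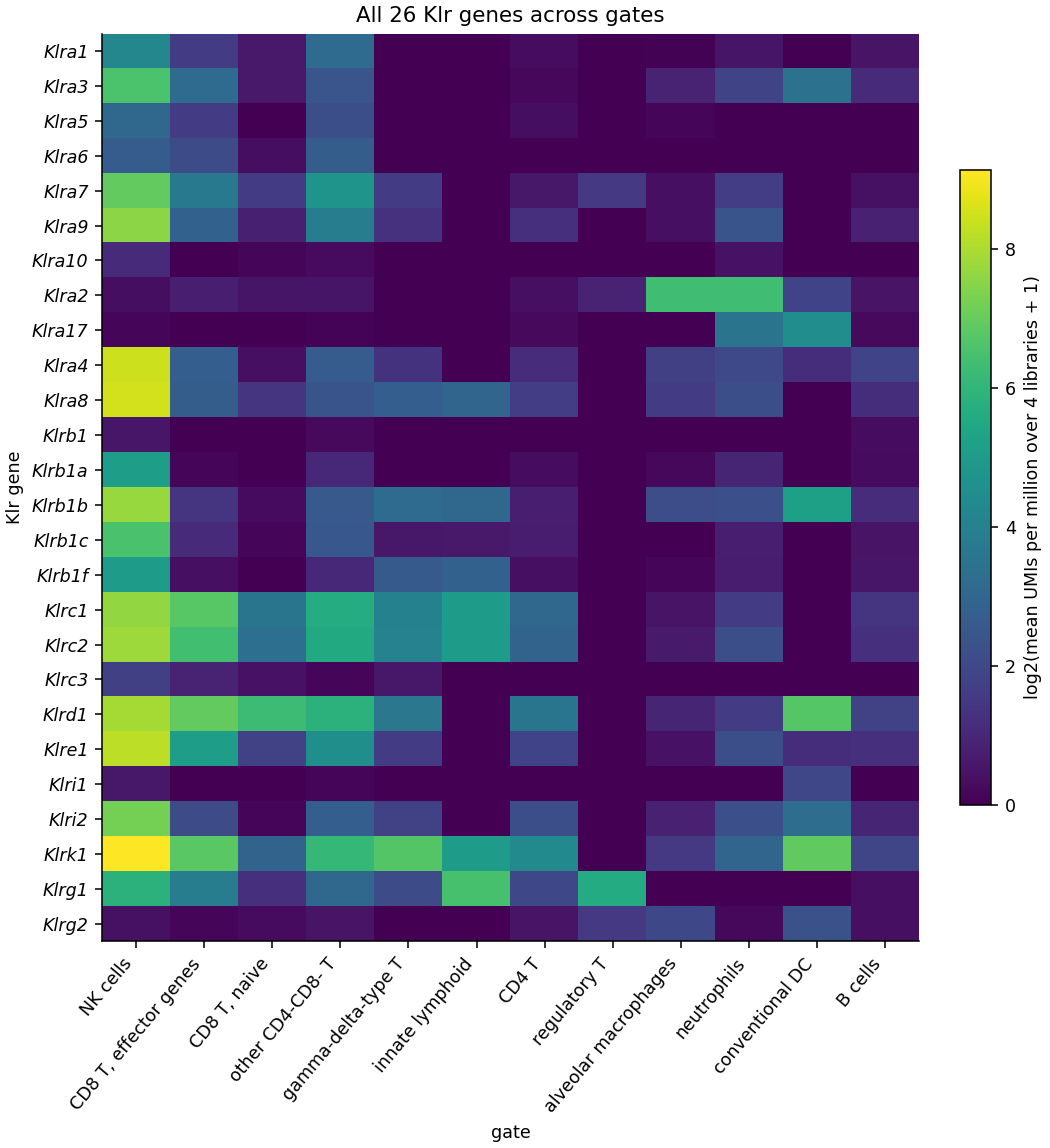
Mean level of each of the 26 Klr genes (rows) in 12 cell types (columns), as log2 of the mean CPM over the 4 libraries plus 1 (colour). The column of NK cells is the brightest for most rows, Klra2 is brightest in alveolar macrophages and neutrophils (80.4 and 79.4 CPM), and Klra17 in conventional dendritic cells (21.2 CPM, from 4 to 21 cells per library) and then neutrophils (10.3 CPM).

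In NK cells the summed Klr level was 3726 CPM (3577 to 3878) for NB, 3717 (3633 to 3804) for 2 M, 3457 (3379.8 to 3536) for 10 M and 2081 (1978 to 2188) for 18 M. NB, 2 M and 10 M lay close together, and 18 M was the lowest, at 0.5599 (0.5296 to 0.592) of 2 M. Of 17 members with at least 30 UMIs in 18 M and 2 M together, 7 were at least 2-fold lower in 18 M (Klra1, Klra3, Klra7, Klra8, Klra9, Klrg1 and Klrk1) and 0 at least 2-fold higher. Over all 7173 genes so measured in NK cells, 6.11% were at least 2-fold lower and 3.37% at least 2-fold higher. The median log2 ratio of the 17 was -0.89, against -0.04 over all genes, with 13 members below 0 and 4 above. The same count was 0 of 18 in either direction for 10 M against 2 M, where 0.962% of all genes were lower and 0.637% higher, with a median log2 ratio of -0.09. For NB against 2 M, 2 of 17 (Klrb1f and Klrg1) were at least 2-fold higher and 0 lower, against 1.23% and 3.24% of all genes, with a median of 0.05. The split of 13 and 4 was the same under 2 other scalings, and the count of 7 was 6 (all but Klra1) with median-of-ratios scaling. It was 6 against 2 M and 10 M summed, 7 in the 18 M cells that had a Y-linked UMI but none of Xist, and 4 (Klra3, Klra8, Klra9 and Klrg1) when mitochondrial, ribosomal and haemoglobin genes were left out of the totals. Those genes made up 27.1% (NB), 24.5% (2 M), 24.03% (10 M) and 31.1% (18 M) of the UMIs of NK cells.

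**Figure D2:**
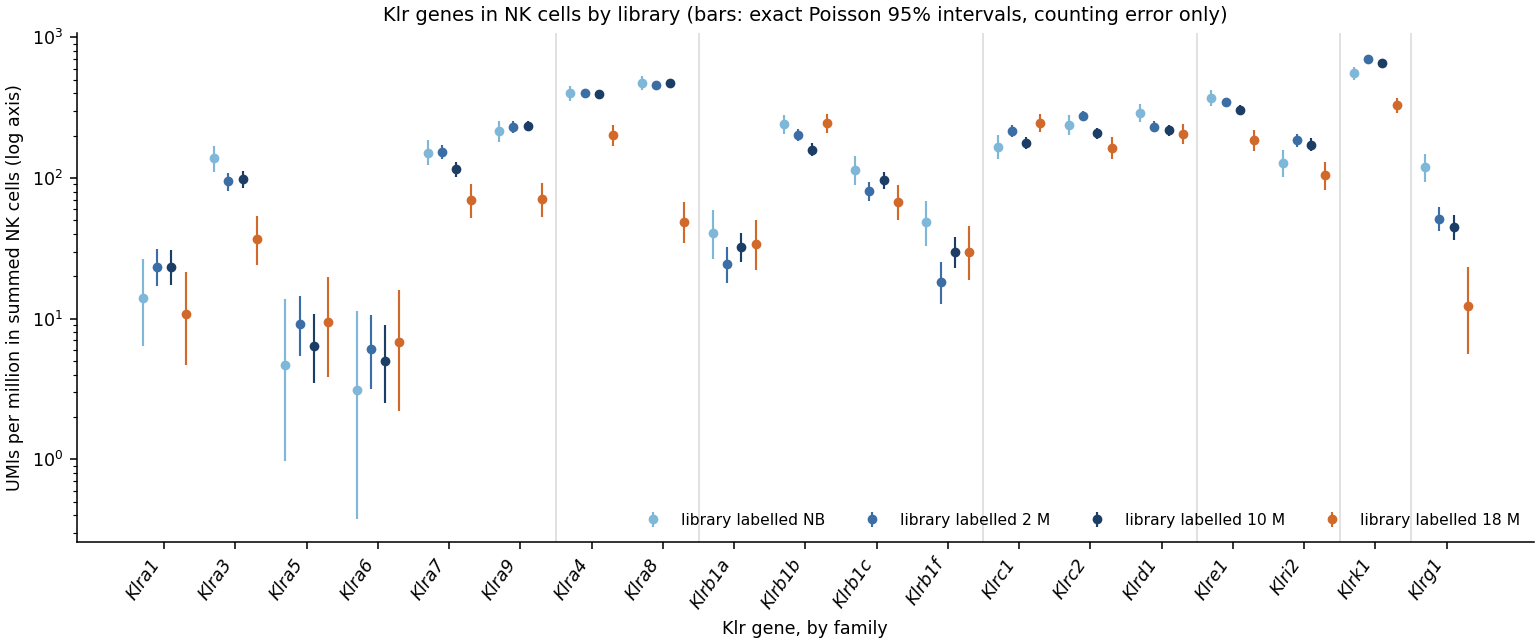
Level of the 19 described Klr genes in NK cells, in CPM on a log axis, by family from Klra to Klrg, for the libraries labelled NB (142 cells), 2 M (448), 10 M (542) and 18 M (138). Points are summed NK cells and bars exact Poisson 95% intervals for counting error. The orange points of 18 M lie under the rest for Klra3, Klra4, Klra7, Klra8 and Klra9, Klrk1 and Klrg1, and not for Klrb1b and Klrc1.

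The activating Ly49 genes were lower in 18 M by unequal factors. Klra8, which encodes the receptor Ly49H that in C57BL/6 mice recognises cells infected with mouse cytomegalovirus, was at 476 CPM (424 to 532) for NB, 459.7 (430.2 to 491) for 2 M, 472 (444 to 502) for 10 M and 48.98 (34.3 to 67.8) for 18 M, from 304, 905, 1034 and 36 UMIs. The first 3 libraries overlapped, and 18 M lay far under all of them, at 0.107 (0.0741 to 0.149) of 2 M. Klra4, which encodes Ly49D, was at 402 CPM (354 to 454) for NB, 403 (375 to 432) for 2 M, 394 (368 to 421) for 10 M and 201 (170.2 to 237) for 18 M, from 257, 793, 862 and 148 UMIs. Its level in 18 M was 0.4998 (0.417 to 0.596) of that in 2 M, so Klra4 was lower by a smaller factor than Klra8, and the intervals of these ratios did not overlap. Against 2 M, the ratio of 10 M was 1.03 (0.938 to 1.12) for Klra8 and 0.977 (0.886 to 1.08) for Klra4, and that of NB was 1.03 (0.906 to 1.18) and 0.998 (0.864 to 1.15). In the library labelled NB (10 days by its label), the intervals of both genes overlapped those of 2 M. Cells with a Klra8 UMI made up 39.4% (NB), 51.3% (2 M), 55.5% (10 M) and 8.696% (18 M) of NK cells and 0.0748% (NB), 0.662% (2 M), 0.439% (10 M) and 0% (18 M) of B cells (0 of 1775 in 18 M, where 3 cells would be 0.169%). Median depths were 3785 to 4501 UMIs in NK cells and 3176 to 3935 in B cells.

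The better measured inhibitory Ly49 genes were lower in 18 M too. Klra9 (Ly49I) was at 214 CPM (180.0 to 253) for NB, 231 (209.9 to 253) for 2 M, 235 (215 to 256) for 10 M and 70.7 (52.8 to 92.8) for 18 M. The level in 18 M was 0.307 (0.226 to 0.409) of 2 M, while NB and 10 M stood at 0.9295 (0.762 to 1.13) and 1.02 (0.895 to 1.16). Klra7 (Ly49G) was at 152 CPM (123 to 185) for NB, 153 (136 to 171) for 2 M, 115 (101 to 130.2) for 10 M and 69.4 (51.7 to 91.2) for 18 M. It was lower than 2 M in the library labelled 18 M, at 0.454 (0.3304 to 0.612), and in 10 M, at 0.752 (0.634 to 0.892), and close to 2 M in NB at 0.993 (0.781 to 1.25). Klra3 (Ly49C) was at 138 CPM (110.4 to 169.6) for NB, 94.5 (81.4 to 109) for 2 M, 97.7 (85.04 to 112) for 10 M and 36.7 (24.2 to 53.4) for 18 M, highest in NB at 1.46 (1.12 to 1.89) of 2 M and lowest in 18 M at 0.389 (0.2495 to 0.584). Klra1 (Ly49A) was sparse, with 9, 46, 51 and 8 UMIs and 14.1 CPM (NB), 23.4 (2 M), 23.3 (10 M) and 10.9 (18 M), and 18 M was at 0.466 (0.1899 to 0.997) of 2 M. Klra5 (Ly49E) and Klra6 (Ly49F) were sparser still, with 3, 18, 14 and 7 UMIs in order of age for Klra5 and 2, 12, 11 and 5 for Klra6. Their levels in 18 M, 9.52 and 6.802 CPM, were not separated from those in 2 M, 9.14 and 6.096 CPM, at this depth. In mice Ly49E is the first Ly49 receptor to appear, on fetal NK cells. Transcript ends are partly shared between some members, over 12.4% of the stretches of 90 bases in the last 500 bases of Klra9, 6.57% for Klra7 and 5.15% for Klra3, against 0% for Klra1, Klra4, Klra5, Klra6 and Klra8, so counts of Klra9, Klra7 and Klra3 are less certain.

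Summed over the 11 genes, Klra transcripts in NK cells were at 1407 CPM (1316 to 1502) for NB, 1381 (1329 to 1434) for 2 M, 1349 (1301 to 1399) for 10 M and 454 (407 to 506) for 18 M, and the ratio to 2 M was 1.02 (0.944 to 1.099) in NB, 0.977 (0.927 to 1.03) in 10 M and 0.329 (0.293 to 0.369) in 18 M. The activating pair summed to 878 CPM (NB), 863 (2 M), 866 (10 M) and 250.3 (18 M), and the inhibitory members to 529 CPM (NB), 518 (2 M), 483 (10 M) and 204 (18 M). In 18 M the activating pair was at 0.2902 (0.248 to 0.338) of 2 M and the inhibitory members at 0.394 (0.3296 to 0.468). Of the 6 Klra genes with 30 UMIs, all were below 2 M in 18 M, 5 of them by at least 2-fold, against 6.11% of all genes. Their median log2 ratio was -1.23, against -0.04 over all genes. With mitochondrial, ribosomal and haemoglobin genes left out of the totals, the Klra genes past 2-fold were Klra3, Klra8 and Klra9. The shares of Klra8 and Klra4 among the Klra transcripts were close in the first 3 libraries and different in 18 M. Klra8 gave 33.8% (NB), 33.3% (2 M), 34.99% (10 M) and 10.8% (18 M) of all Klra UMIs in NK cells, and Klra4 gave 28.6% (NB), 29.2% (2 M), 29.2% (10 M) and 44.3% (18 M). The share of Klra9 was 15.2% (NB), 16.7% (2 M), 17.4% (10 M) and 15.6% (18 M), that of Klra7 10.8% (NB), 11.1% (2 M), 8.53% (10 M) and 15.3% (18 M) and that of Klra3 9.79% (NB), 6.84% (2 M), 7.24% (10 M) and 8.08% (18 M). The first 3 libraries were not alike throughout. By intervals that did not overlap, the share of Klra7 was lower in 10 M (7.55 to 9.59) than in 2 M (9.92 to 12.3). The share of Klra3 was likewise higher in NB (7.92 to 11.9) than in 2 M (5.92 to 7.86). Klra8 gave the most Klra UMIs in NB, 2 M and 10 M, and Klra4 in 18 M.

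**Figure D3:**
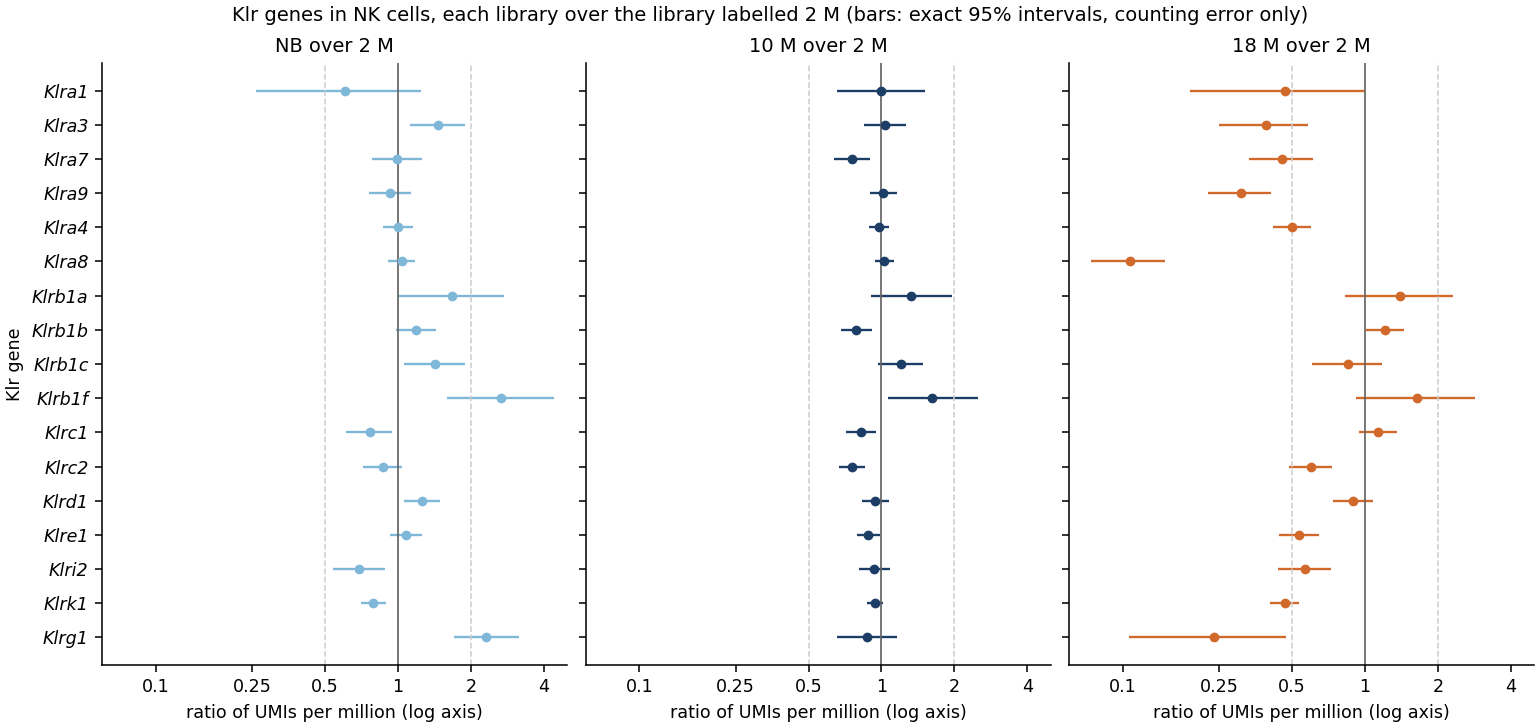
Ratio of the CPM of 17 Klr genes in NK cells to the library labelled 2 M, on a log axis, for NB (left), 10 M (middle) and 18 M (right). Bars are exact 95% intervals for counting error, the solid line marks 1 and the dashed lines 2-fold. Ratios of 10 M keep between the dashed lines, Klrb1f and Klrg1 pass 2-fold in NB, and Klra8 in 18 M is the farthest point at 0.107.

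Fewer Klra members were detected per NK cell in 18 M. With each cell thinned to 1000 UMIs to remove differences in depth, the mean number of Klra members with a UMI per cell was 1 (0.842 to 1.18) for NB, 1.03 (0.937 to 1.13) for 2 M, 0.989 (0.907 to 1.08) for 10 M and 0.391 (0.294 to 0.511) for 18 M, over 141, 446, 538 and 138 cells, after 1, 2, 4 and 0 shallower cells were left out. Cells with none of the 11 made up 36.9% (NB), 34.3% (2 M), 32.5% (10 M) and 68.1% (18 M) of NK cells, and cells with 3 or more made up 4.96% (NB), 7.17% (2 M), 5.204% (10 M) and 0% (18 M). Beside the count of 0 among 138 cells, a count of 3 cells would be 2.17%. At full depth the mean was 1.91 (NB), 2.04 (2 M), 1.96 (10 M) and 0.775 (18 M), the share with none was 16.9% (NB), 10.04% (2 M), 10.5% (10 M) and 47.1% (18 M), and the most members seen in 1 cell was 6, 5, 6 and 3. Cells with both an activating and an inhibitory Klra UMI made up 41.5% (NB), 52.01% (2 M), 49.3% (10 M) and 12.3% (18 M) at full depth. In B cells, for comparison, 0.748% (NB), 1.52% (2 M), 1.51% (10 M) and 0.394% (18 M) had any Klra UMI. The intervals of the mean overlapped between NB, 2 M and 10 M, and that of 18 M lay below them. A lower summed Klra level by itself lowers the number of members detected at a fixed depth. These counts therefore do not separate fewer expressed members per cell from less RNA of each member.

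**Figure D4:**
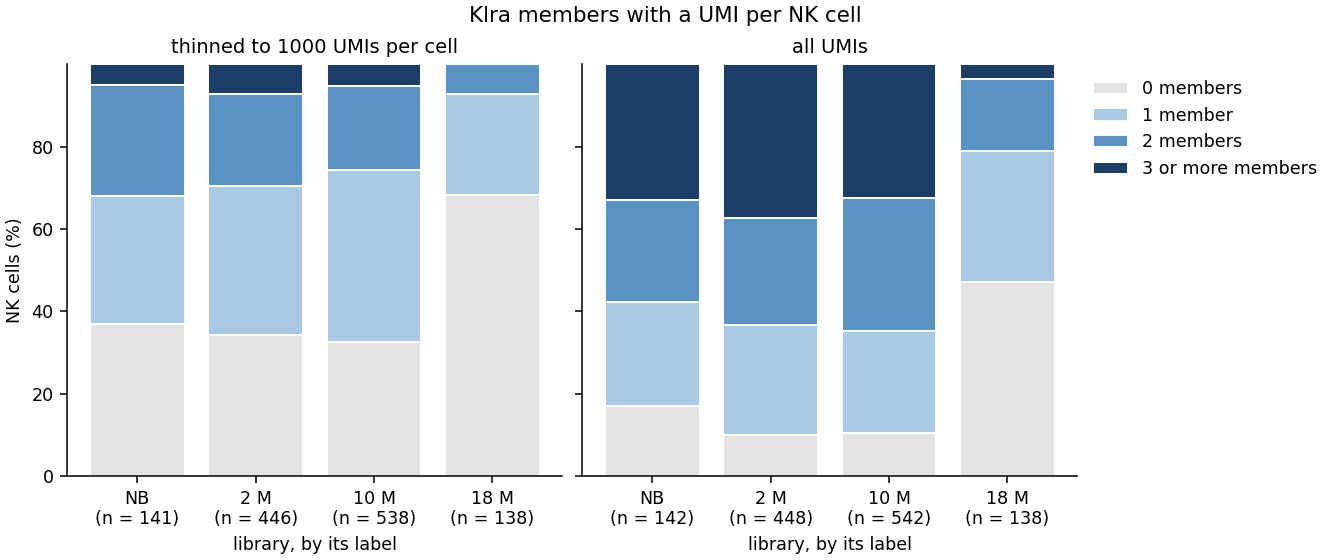
Share of NK cells (%) with 0, 1, 2 and 3 or more Klra members with a UMI, by library, with cells thinned to 1000 UMIs (left) and at full depth (right). The cells with 0 members make up 68.1% of the 18 M bar on the left, against 32.5 to 36.9% of the other 3.

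Klra8 was detected more often in NK cells that held Klra4. In NB a Klra8 UMI was found in 66.7% (40 of 60) of NK cells with a Klra4 UMI and 19.5% (16 of 82) of those without. The shares were 62.5% with and 41.7% without Klra4 in 2 M, and 64.9% and 48% in 10 M. In 18 M the shares were 25% (7 of 28) with and 4.55% (5 of 110) without. Other pairs went in no single direction. A Klra7 UMI was found in 26.04% of 2 M cells with Klra9 and 31.2% of those without, and a Klra9 UMI in 39.8% of 2 M cells with Klra3 and 43.8% of those without. In 10 M the shares were 20.1% and 27.9% for Klra7 by Klra9, and 45.2% and 36.6% for Klra9 by Klra3. A Klra8 UMI was found in 52.5% of 10 M cells with Klrk1 and 72.3% of those without, against 52.1% and 46.7% in 2 M. Cells with Klra4 were also deeper in 18 M, at a median of 5245.5 UMIs against 4225.5 without it, in 2 M, at 4306.5 against 3913, and in 10 M, at 3821.5 against 3764.5, but not in NB, at 4089 against 4211.5, and the part of depth in these shares was not tested.

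The Klrb1 genes, whose products include the antigen by which antibodies identify NK cells in C57BL/6 mice, were not lower in 18 M as a sum. Summed, they were at 444 CPM (394 to 499) for NB, 326 (301 to 352) for 2 M, 319 (295 to 343) for 10 M and 377 (334 to 424) for 18 M, with ratios to 2 M of 1.36 (1.18 to 1.57) in NB, 0.979 (0.878 to 1.09) in 10 M and 1.16 (1.002 to 1.33) in 18 M. Klrb1b, the inhibitory NKR-P1B that recognises the product of Clec2d, was at 241 CPM (204 to 282) for NB, 202 (183 to 223) for 2 M, 159 (143 to 176) for 10 M and 245 (210.4 to 283) for 18 M. It was higher than 2 M in 18 M, at 1.21 (1.01 to 1.45), and lower in 10 M, at 0.786 (0.679 to 0.9097). Klrb1c, the gene of that antigen, was at 114 CPM (89.5 to 144) for NB, 80.3 (68.2 to 93.8) for 2 M, 96.3 (83.8 to 110.2) for 10 M and 68.02 (50.5 to 89.7) for 18 M, and 18 M was at 0.848 (0.604 to 1.17) of 2 M. Klrb1f, whose product binds that of Clec2i, was at 48.5 CPM (NB), 18.3 (2 M), 29.7 (10 M) and 29.9 (18 M) from 31, 36, 65 and 22 UMIs. It was higher than 2 M in NB at 2.65 (1.59 to 4.41) and in 10 M at 1.62 (1.06 to 2.51), and its interval in 18 M, 1.64 (0.917 to 2.86), included 1. Klrb1a, an activating member, was at 40.7 CPM (NB), 24.4 (2 M), 32.4 (10 M) and 34.01 (18 M), with a ratio of 1.39 (0.824 to 2.31) in 18 M.

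The CD94 and NKG2 genes differed among themselves. Klrd1 (CD94) was at 291 CPM (251 to 336) for NB, 232 (211 to 254) for 2 M, 218 (199 to 239) for 10 M and 207 (175 to 242) for 18 M, and its ratio to 2 M was 0.893 (0.738 to 1.07) in 18 M, 0.942 (0.827 to 1.07) in 10 M and 1.26 (1.05 to 1.49) in NB. Klrc1, the inhibitory partner NKG2A, was at 166 CPM (136 to 201) for NB, 217 (197 to 238) for 2 M, 179 (161 to 197) for 10 M and 246 (212 to 285) for 18 M. It was highest in 18 M, where its ratio to 2 M was 1.14 (0.949 to 1.35) and its ratio to 10 M 1.38 (1.15 to 1.65). Klrc2, the activating partner NKG2C, was at 238 CPM (202 to 279) for NB, 275 (253 to 299.5) for 2 M, 208 (189 to 228) for 10 M and 165 (137 to 197) for 18 M. It was lowest in 18 M at 0.598 (0.487 to 0.729) of 2 M, and 10 M was also lower at 0.754 (0.665 to 0.856). Klrc1 and Klrc2 share sequence near their ends (21.9% of the stretches of Klrc1), which limits how firmly they can be told apart. Among NK cells with a Klrd1 UMI, a Klrc1 or Klrc2 UMI was found in 70.97% (NB), 70.8% (2 M), 60.4% (10 M) and 70.5% (18 M), and among those without in 61.2% (NB), 63.1% (2 M), 59.1% (10 M) and 73.3% (18 M).

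Klre1 and Klri2 encode the partners of a further heterodimer of mouse NK cells, and both were lower in 18 M. Klre1 was at 372 CPM (327 to 423) for NB, 345 (319 to 372) for 2 M, 304 (281 to 328) for 10 M and 185 (155 to 219) for 18 M, at 0.536 (0.443 to 0.646) of 2 M in 18 M and 0.882 (0.791 to 0.982) in 10 M. Klri2 was at 128 CPM (102 to 159) for NB, 185 (167 to 205) for 2 M, 173 (156 to 191) for 10 M and 105 (82.7 to 131) for 18 M, at 0.565 (0.436 to 0.724) of 2 M in 18 M and 0.692 (0.538 to 0.881) in NB. Neither reached a 2-fold difference. The intervals of their ratios in 18 M overlapped each other and stayed under 1.

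Klrk1 (NKG2D) was at 555 CPM (499 to 616) for NB, 703 (666 to 741) for 2 M, 661 (627 to 696) for 10 M and 328 (288 to 372) for 18 M, from 355, 1384, 1447 and 241 UMIs, and a UMI of it was seen in 78.9% (NB), 86.6% (2 M), 84.7% (10 M) and 66.7% (18 M) of NK cells, against 0.299% (NB), 0.795% (2 M), 0.683% (10 M) and 0.0563% (18 M) of B cells. It was highest in 2 M, with 10 M close at 0.9396 (0.872 to 1.01), NB lower at 0.7901 (0.701 to 0.888) and 18 M lowest at 0.466 (0.405 to 0.535). Klrg1, the cadherin receptor of mature NK cells, was highest in NB, at 119 CPM (93.7 to 149) for NB, 51.3 (41.8 to 62.3) for 2 M, 44.7 (36.3 to 54.5) for 10 M and 12.2 (5.599 to 23.2) for 18 M. NB was at 2.32 (1.698 to 3.15) of 2 M and 18 M at 0.239 (0.106 to 0.471), from 76, 101, 98 and 9 UMIs. The libraries labelled with the youngest and the oldest age thus lay on opposite sides of 2 M for Klrg1, with 10 M at 0.872 (0.654 to 1.16).

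Other NK genes differed between 18 M and 2 M together with the receptors, by lists chosen with earlier results of these data known, and their counts stand beside 6.11% of all genes at least 2-fold lower and 3.37% at least 2-fold higher. Of 8 genes of mature NK cells, 7 had 30 UMIs and all 7 were at least 2-fold lower in 18 M, with a median log2 ratio of -1.11. Ly6c2 was at 46.3 CPM in 18 M and 272 CPM in 2 M, a ratio of 0.1699 (0.116 to 0.2404), and the granule protease gene Gzmb at 112 CPM in 18 M and 479.5 CPM in 2 M, a ratio of 0.233 (0.183 to 0.292). Of 8 genes of less mature NK cells, 7 were measured and all 7 were higher, 4 of them by at least 2-fold, with a median of 1.08. Tcf7, a transcription factor of early lymphocytes, was at 149.6 CPM in 18 M and 59.4 CPM in 2 M, a ratio of 2.52 (1.92 to 3.29), and the early activation gene Cd69 at 227 CPM in 18 M and 69.1 CPM in 2 M, a ratio of 3.29 (2.61 to 4.16). Ikzf2, the gene of Helios, was the 1 of 10 lineage factors past 2-fold, at 665 CPM in 18 M and 83.3 CPM in 2 M, a ratio of 7.99 (6.68 to 9.59). Eomes, a gene of the NK gate whose level therefore describes the gated cells, was at 506 CPM in 18 M and 824 CPM in 2 M, a ratio of 0.614 (0.547 to 0.687). Of 7 genes of tissue-resident type 1 ILCs, 1 had 30 UMIs, Cxcr6, at 25.8 CPM in 18 M and 5.59 CPM in 2 M, a ratio of 4.63 (2.09 to 10.8). For 10 M against 2 M the median log2 ratios were -0.01 and 0.35 for the mature and less mature lists. Cells with at least 2 of 6 cell cycle genes made up 2.11% (NB), 1.12% (2 M), 0.554% (10 M) and 10.1% (18 M) of NK cells, and Mki67 was at 152 CPM in 18 M and 13.2 CPM in 2 M, a ratio of 11.5 (7.48 to 18.4). Without those cells the Klra ratio of 18 M to 2 M was 0.3304. The part that maturity plays in the Klr differences was not tested.

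The listed adaptors and signalling genes of these receptors were measured in full, 13 of 13, and 0 passed 2-fold in 18 M, with a median log2 ratio of -0.45. Tyrobp (DAP12) was at 880.2 CPM in 18 M and 1324 CPM in 2 M, a ratio of 0.665 (0.609 to 0.725), and Fcer1g, the gene of the Fc receptor gamma chain, at 811 CPM in 18 M and 1473 CPM in 2 M, a ratio of 0.551 (0.503 to 0.602). Hcst, the gene of the NKG2D adaptor DAP10, was at 415 CPM in 18 M and 424 CPM in 2 M, a ratio of 0.979 (0.856 to 1.12). Klra8, Klra4 and Tyrobp were therefore all lower in 18 M, by unequal factors. Of 10 other NK receptors, 7 were measured, 4 of them below 2 M and 3 above, and 2 were at least 2-fold lower, against 6.11% of all genes. Ncr1 was at 23.1 CPM in 18 M and 72.6 CPM in 2 M, a ratio of 0.318 (0.1805 to 0.528). It is a gene of the NK gate, so its level describes the gated cells. Tigit was at 1.36 CPM in 18 M and 16.8 CPM in 2 M, a ratio of 0.0812 (0.001995 to 0.485). Its level in 18 M was that of a single UMI, so it met the minimum count through 2 M. The count of 2 therefore cannot show whether these receptors were lower as a set.

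Ligands of the Klr receptors were found in many cell types, ranked here among those with at least 20 cells. H2-K1, a class I heavy chain read by Ly49 receptors, was highest in NK cells in all 4 libraries, at 3677 CPM (NB), 3201 (2 M), 3435 (10 M) and 2188 (18 M). In NK cells H2-D1 was at 1452 CPM in 18 M and 2754 CPM in 2 M, a ratio of 0.527 (0.493 to 0.563), and H2-T23, the gene of Qa-1, at 106 CPM in 18 M and 169.7 CPM in 2 M, a ratio of 0.625 (0.482 to 0.802). All 6 ligands with 30 UMIs in NK cells were below 2 M there, with a median log2 ratio of -0.61. Clec2d was highest in endothelial cells in all 4 libraries, at 187 CPM (NB), 239 (2 M), 124 (10 M) and 182 (18 M), and Clec2i in B cells, at 121 CPM (NB), 145 (2 M), 121 (10 M) and 127 (18 M). Clec2h and Clec2e had 0 UMIs in all kept cells. Cdh1 (E-cadherin), a ligand of KLRG1, was highest in alveolar type II cells in NB, 2 M and 18 M, at 236, 269 and 331 CPM. Transcripts for the NKG2D ligands were sparse, with at most 2.67 CPM over all kept cells for Raet1e, Raet1d, H60b, H60c and Ulbp1.

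CD8 T cells carried a narrower set of Klr genes. Those with at least 2 of 6 effector genes (Ccl5, Nkg7, Gzmk, Gzma, Gzmb and Cxcr3) numbered 446 (NB), 86 (2 M), 304 (10 M) and 149 (18 M), and naive cells 242 (NB), 357 (2 M), 276 (10 M) and 347 (18 M), at median depths of 6099 to 8461.5 and 6271 to 7477 UMIs. In all 4 libraries 6 members were higher in effector than in naive cells by intervals of the ratio above 1, namely Klra7, Klrc1, Klrc2, Klrd1, Klre1 and Klrk1, and the same 6 were above B cells. Library by library, 14 (NB), 9 (2 M), 14 (10 M) and 11 (18 M) of the 19 described members were above B cells in effector cells. In naive cells the counts were 7 (NB), 2 (2 M), 4 (10 M) and 4 (18 M). Klrc1 in effector cells was at 168 CPM (154 to 183) for NB, 46.4 (32.2 to 64.9) for 2 M, 170.2 (153 to 189) for 10 M and 47 (35.9 to 60.5) for 18 M, and in naive cells at 28.2 CPM (NB), 1.903 (2 M), 7.63 (10 M) and 4.996 (18 M). NB and 10 M were alike and high, and 2 M and 18 M alike and low. Klrc2 in effector cells followed the same order, at 128 CPM (NB), 32.8 (2 M), 128 (10 M) and 36.04 (18 M). Klrk1 in effector cells was at 184 CPM (169 to 199) for NB, 61.5 (44.8 to 82.3) for 2 M, 186 (168 to 205) for 10 M and 14.9 (8.96 to 23.2) for 18 M, again high in NB and 10 M, with 18 M lowest at 0.242 (0.134 to 0.422) of 2 M. Klre1 was at 42.7 CPM (NB), 15.03 (2 M), 62.4 (10 M) and 12.5 (18 M) in effector cells. The intervals of Klrd1 overlapped in all 4 libraries, at 115 CPM (104 to 127) for NB, 124 (100.1 to 153) for 2 M, 129 (114 to 145) for 10 M and 125 (106 to 145) for 18 M in effector and 70.6 CPM (NB), 74.6 (2 M), 72.03 (10 M) and 83.3 (18 M) in naive cells, and it was the 1 member above B cells in naive cells in all 4 libraries.

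**Figure D5:**
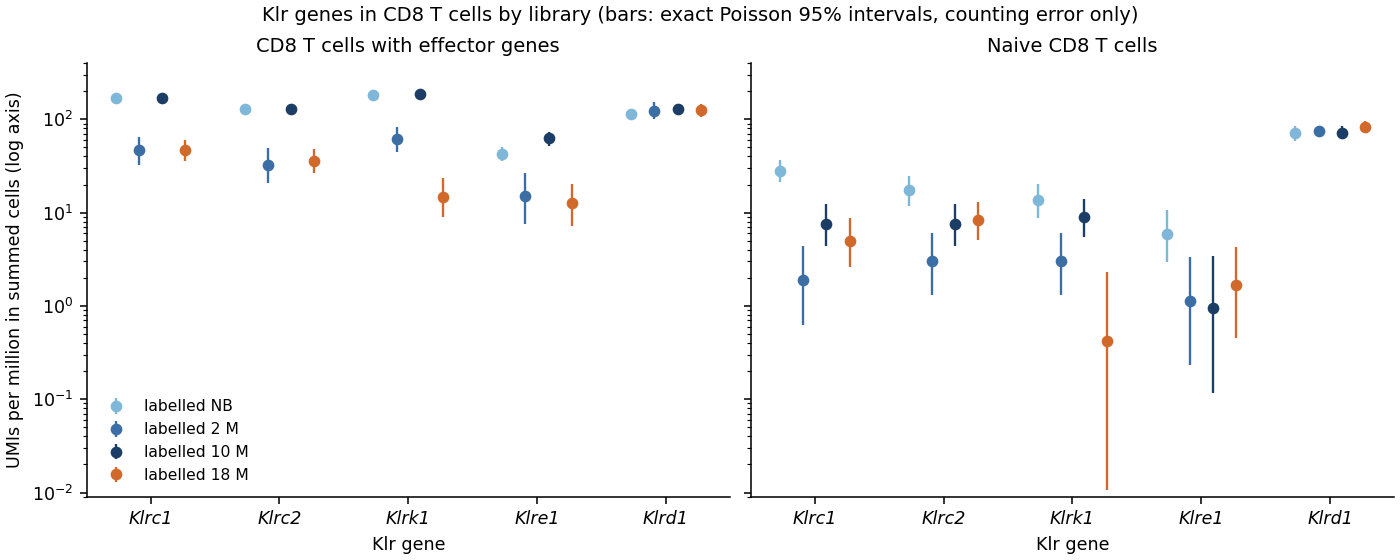
Level of 5 Klr genes in CD8 T cells with effector genes (left) and in naive CD8 T cells (right), in CPM on a log axis, with the 4 libraries in order of age. Bars are exact Poisson 95% intervals for counting error. On the left NB and 10 M lie above 2 M and 18 M for Klrc1, Klrc2, Klrk1 and Klre1, and Klrd1 is level across the 4.

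Counted in effector CD8 T cells, 6 of 8 members with 30 UMIs were at least 2-fold higher in 10 M than in 2 M (Klra4, Klrc1, Klrc2, Klre1, Klrg1 and Klrk1) and 0 lower, against 4.18% and 1.67% of all genes. Klra4 had 31 UMIs in 10 M and 1 in 2 M, a ratio of 10.6 (1.77 to 434), and reached 30 UMIs only through 10 M. The summed cells held 3206585 UMIs (NB), 732000 (2 M) and 2132439 (10 M), so members low in 2 M met that minimum more easily than members high there. In NB 5 of 8 were higher (Klra7, Klrc1, Klrc2, Klre1 and Klrk1) and 1 lower (Klra3), against 5.36% and 2.35%. In 18 M 0 of 4 were higher and 1, Klrk1, lower, against 5.2% and 2.16%. Ratios to 2 M were 3.66 (2.58 to 5.37) for Klrc1, 3.92 (2.58 to 6.22) for Klrc2 and 3.03 (2.22 to 4.22) for Klrk1 in 10 M, and 3.61 (2.55 to 5.27), 3.9 (2.58 to 6.16) and 2.99 (2.21 to 4.15) in NB. These ratios share the 2 M library, which had the fewest effector cells (86). The make-up of the effector cells moved with them, and its part was not tested. Gzmk was seen in 40.8% (NB), 8.14% (2 M), 39.8% (10 M) and 2.68% (18 M) of effector cells, and Ccr7, a gene of naive and central memory cells, in 40.4% (NB), 75.6% (2 M), 34.5% (10 M) and 87.9% (18 M). Among effector cells with a Klrd1 UMI, Klrc1 or Klrc2 was found in 61.9% (NB), 21.3% (2 M), 53.3% (10 M) and 25.6% (18 M), and among naive cells with Klrd1 in 11.5% (NB), 1.53% (2 M), 4.08% (10 M) and 4.51% (18 M). Any Klra UMI was found in 13.7% (NB), 9.302% (2 M), 12.8% (10 M) and 8.05% (18 M) of effector cells and 4.13% (NB), 1.401% (2 M), 1.45% (10 M) and 1.44% (18 M) of naive cells. Over all CD8 T cells the summed Klr level was 507 CPM (NB), 144 (2 M), 443 (10 M) and 161 (18 M). The ratio of 18 M to 2 M was 1.12 (0.992 to 1.26) over all of them, 0.792 in effector cells, and 0.518 over all of them when 2 M and 10 M were summed as the reference.

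In gamma-delta-type T cells Klrk1 was the 1 member above B cells in all 4 libraries. Library by library, 4 (NB), 3 (2 M), 6 (10 M) and 8 (18 M) of the 19 described members were above B cells. Klrk1 was at 125 CPM (94.3 to 164) for NB, 67.1 (34.7 to 117) for 2 M, 168 (134 to 209) for 10 M and 48.6 (32.05 to 70.8) for 18 M, in 26.9% (NB), 22.2% (2 M), 36.96% (10 M) and 19.3% (18 M) of cells. NB and 10 M were above 18 M by intervals that did not overlap, and 2 M overlapped all but 10 M. Other members were rare. Any Klra UMI was found in 0% (NB), 0% (2 M), 2.17% (10 M) and 1.14% (18 M) of these cells, and the 11 Klra8 UMIs of 10 M came from 1 cell. The counts of 0 in NB and 2 M, from 93 and 27 cells, allow shares of up to 3.89% and 12.8%. Summed over the family, 18 M was at 0.952 (0.592 to 1.58) of 2 M, with an interval that included 1. It was at 0.455 (0.337 to 0.6102) of 10 M and, with 2 M and 10 M summed as the reference, at 0.529 (0.394 to 0.704), both with intervals below 1. Remaining CD4-CD8- T cells, which may hold NKT cells and other gamma-delta cells, carried more of the family. In them Klrk1 was at 108 CPM (NB), 25.1 (2 M), 105 (10 M) and 30.4 (18 M), Klrc1 at 84.8 CPM (NB), 12.3 (2 M), 66.9 (10 M) and 31.8 (18 M) and Klra7 at 30.1 CPM (NB), 26.9 (2 M), 21.2 (10 M) and 22.9 (18 M), and any Klra UMI was found in 11.8% (NB), 7.77% (2 M), 13% (10 M) and 9.89% (18 M) of cells.

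In innate lymphoid cells Klrg1 was the 1 member above B cells in all 4 libraries. Library by library, 6 (NB), 1 (2 M), 1 (10 M) and 1 (18 M) of the 19 described members were above B cells. Klrg1 was at 49.8 CPM (6.03 to 179.9) for NB, 27.2 (0.689 to 152) for 2 M, 224 (107 to 411) for 10 M and 55.04 (35.6 to 81.2) for 18 M, from 2, 1, 10 and 25 UMIs, with a UMI in 9.09% (NB), 10% (2 M), 54.5% (10 M) and 20.8% (18 M) of cells. KLRG1 marks group 2 ILCs in mouse lung. With 11 and 10 cells, NB and 2 M were not separated from 18 M, and 10 M (11 cells) was above 18 M (72 cells) by intervals that did not overlap. The ILCs of NB held more UMIs of other members, with 5 of Klrc1 and 5 of Klrc2 (each 125 CPM) and 4 of Klrk1 (99.6 CPM), each gene in 1 of 11 cells. The summed family was at 0.782 (0.243 to 4.01) of 2 M in 18 M, 2.74 (0.705 to 15.5) in 10 M and 5.49 (1.604 to 29.1) in NB, from 18 (NB), 3 (2 M), 10 (10 M) and 29 (18 M) UMIs. With 2 M and 10 M summed as the reference, 18 M was at 0.4003 (0.202 to 0.839), an interval below 1. Regulatory T cells also carried Klrg1, at 37.2 CPM (NB), 45.3 (2 M), 13.6 (10 M) and 96.9 (18 M). These levels came from 5, 2, 1 and 28 UMIs over 21, 6, 11 and 40 cells in order of age. The ratio of 18 M to 2 M was 2.14 (0.540 to 18.5), an interval that included 1. In 18 M the level in regulatory T cells was the highest of the gene among cell types with at least 20 cells.

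Klra2 and Klra17 were found in myeloid cells, with 2 and 1 UMIs in NK cells. Klra2 (Ly49B) was at 91 CPM (78.3 to 105) for NB, 83.3 (70.6 to 97.6) for 2 M, 75.1 (65.7 to 85.5) for 10 M and 72.2 (65.03 to 79.9) for 18 M in alveolar macrophages, where a UMI was seen in 67.1% (NB), 71.96% (2 M), 62.4% (10 M) and 54.1% (18 M) of cells, and at 87.03 CPM (74.03 to 102) for NB, 66.8 (49.1 to 88.8) for 2 M, 59.96 (46.6 to 76.01) for 10 M and 104 (86.99 to 123) for 18 M in neutrophils. Among cell types with at least 20 cells, Klra17 (Ly49Q) was highest in neutrophils in all 4 libraries, at 13.7 CPM (8.86 to 20.2) for NB, 11.4 (4.91 to 22.4) for 2 M, 5.29 (1.94 to 11.5) for 10 M and 11.03 (6.03 to 18.5) for 18 M. In smaller groups its level was higher in some libraries. Plasmacytoid dendritic cells held it at 143.7 CPM (62.1 to 283) in NB, from 8 UMIs in 4 of 6 cells, and 23.4 CPM (4.82 to 68.3) in 18 M, from 3 UMIs in 3 of 18 cells. Conventional dendritic cells, 14, 4, 9 and 21 in order of age, held it at 47.1 CPM (NB), 18.4 (2 M), 19.4 (10 M) and 0 (18 M). For Klra2 in alveolar macrophages and Klra17 in neutrophils the intervals of 18 M overlapped those of 2 M. For Klra2 in neutrophils the interval of 18 M (86.99 to 123) overlapped that of 2 M (49.1 to 88.8) only at the edge and lay above that of 10 M (46.6 to 76.01). Overlap of such intervals does not show that levels were equal.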

How the data were processed

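Single-cell libraries of lung were made with the 10x Genomics 3′ chemistry (version 2 per the labels). The deposited values are raw UMI counts per gene and barcode, made by the authors with Cell Ranger 3.0.2 on mm10 (Seurat 2.0 is also named in the submitters' processing notes), with barcodes already filtered. The limits on barcodes were more than 200 genes, fewer than 5000 genes, no more than 25000 UMIs, and mitochondrial UMIs below 8%. No doublet caller was run, and cells that met more than 1 gate (410) were left out of all. Gates used marker genes only and no Klr gene. The gamma-delta gate planned on T cell receptor genes was replaced by CD4-CD8- T cells with type 17 genes, because the gene table used here does not hold those genes. A gene of that type 17 list is not reported here.

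UMIs were summed per gate and library and scaled to CPM, per 1000000 UMIs. Levels have exact Poisson intervals, ratios exact conditional binomial intervals, shares of cells exact Clopper-Pearson intervals, all at 95% and for counting error only. A member was called past 2-fold with at least 30 UMIs in both libraries together and a pseudocount of 0.5 UMIs. With 1 library per age there was no test. Cells were thinned to 1000 UMIs with a fixed seed. Members with 30 UMIs in NK, CD8 T, gamma-delta-type or innate lymphoid cells were described with values, and other genes were named only from fixed lists. The members and lists were chosen with earlier results of these data known. Intervals and calls were checked on simulated counts drawn independently for each gene, which is the model the intervals assume. That check does not cover UMIs that cluster in single cells. Promoter windows are from RefSeq. Scripts ran under Python 3.11.15 with scipy 1.17.1, numpy 2.4.6, matplotlib 3.10.9 and pandas 2.3.3. Alternatives covered limits on cells, gates, scaling, thinning, pseudocount and minimum counts.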

Additional observations from a re-analysis of the deposited data

Results flagged for a closer look

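The ratio of 18 M to 2 M for Klrc2 went in opposite directions in NK cells and CD8 T cells, at 0.598 (0.487 to 0.729) in NK cells and 1.97 (1.28 to 3.09) in CD8 T cells. The difference between the cell types was not tested. In CD8 T cells with effector genes it was 1.099 (0.657 to 1.88), and effector cells made up 149 of 503 CD8 T cells in 18 M and 86 of 443 in 2 M.

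Klr transcripts were also present in barcodes and cells that no comparison used. The 5884 barcodes beyond the limits on cells held 1074 Klr UMIs, or 31.2 CPM, above the 21.4 CPM of B cells. The 9042 kept cells that met no gate held 6161 Klr UMIs, or 155.0 CPM.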

How the results depend on the processing

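For 11 results, 116 values were computed under alternatives, 103 of them under listed settings and 13 under settings chosen after seeing the data. Of these values, 98 kept within the counting interval (or, for counts, within 1.5 times) and 18 did not. The Klra ratio of 18 M to 2 M in NK cells was the only ratio whose interval lay off 1, and it did not turn direction. Ratios whose intervals included 1 crossed it under some settings. The Klra ratio of 18 M to 2 M in NK cells, 0.329, ranged over 0.31 to 0.361 in 9 of the listed settings, and was 0.2597 with a gate on Ncr1 alone, which left 13 cells in 18 M, and 0.375 in the 18 M cells with Xist and no Y-linked UMI. With the Ncr1 gate the 10 M ratio was 0.909 and the members per cell in 18 M 0.231. With at most 1 CD3 UMI allowed, 2 M had 0.931 members per cell. Thinning to 500 UMIs gave 0.5704 (NB), 0.578 (2 M), 0.5701 (10 M) and 0.196 (18 M), and to 2000 UMIs 1.45 (NB), 1.501 (2 M), 1.49 (10 M) and 0.522 (18 M), as fewer or more UMIs per cell must. The 7 members past 2-fold became 4 with totals that left out mitochondrial, ribosomal and haemoglobin genes, under which the median log2 ratio of all genes was 0.10 rather than -0.04, and ranged over 6 to 9 otherwise. The family ratio in CD8 T cells, 1.12, was 0.518 with 2 M and 10 M summed as the reference, 0.792 in effector cells and 0.956 with the Y-linked 18 M cells. In gamma-delta-type T cells, with 27 cells in 2 M, it was 0.529 with the summed reference, against 0.952, and in ILCs 0.4003, against 0.782. The causes of these shifts were not tested.

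No paired analysis was possible because each age had 1 library, and no replicate was left out for the same reason. Depth limits the sparse members most, since 1 UMI in the NK cells of 18 M is worth 1.36 CPM and in the ILCs of 2 M 27.2 CPM.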

Other observations

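Of the 138 NK cells in the library labelled 18 M, 53 held Xist and no Y-linked UMI, 58 a Y-linked UMI and no Xist, 25 neither and 2 both. Summed Klra transcripts were at 518 CPM (438 to 608) in the cells with Xist and 436 CPM (369 to 513) in the cells with Y-linked UMIs, or 0.375 (0.316 to 0.443) and 0.316 (0.266 to 0.374) of 2 M, so the level was under that of 2 M in both. Klra8 was at 45.5 CPM (24.2 to 77.8) and 47.8 CPM (27.3 to 77.7). Klra4 was at 297 CPM (238 to 368) in the cells with Xist and 152 CPM (114 to 200.5) in those with Y-linked UMIs, with intervals that did not overlap, while Klrc1 was at 203 CPM (154 to 262) and 305 CPM (249 to 370.2).

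Conventional dendritic cells, with 14, 4, 9 and 21 cells in order of age, held Klrd1 at 131 CPM (NB), 91.9 (2 M), 135 (10 M) and 57.6 (18 M) and Klrb1b at 41.9 CPM (NB), 0 (2 M), 9.68 (10 M) and 92.2 (18 M).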
